A study of Mus musculus with 12 samples.

Results

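The TCF/LEF factors and Wnt feedback genes are 8 genes of canonical Wnt signalling, measured here as RNA in whole tibialis anterior, a muscle of the mouse's lower hind leg. They are the transcription factor genes Tcf7, Tcf7l1, Tcf7l2 and Lef1, the gene of their coactivator beta-catenin (Ctnnb1), and the feedback inhibitor genes Axin2, Nkd1 and Nkd2. Members were taken by gene name from the deposited gene table, which lists 54532 genes. All 8 were found and all 8 had enough reads to be tested, among 16393 genes tested in all. Tcf7 was chosen by its fold change and adjusted p in these samples, where it passed the test as higher in the knockout, and the other 7 by their function, so the difference of Tcf7 between the groups is given as a description, with no test.

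The knockout group held 6 samples of the genotype given as FAP no ppary, in which Pparg, the master regulator of fat cell formation, was deleted conditionally in fibro-adipogenic progenitors (FAPs), the mesenchymal cells of muscle that can turn into adipocytes. The control group held 6 samples given as Wildtype. Glycerol, an injury agent after which fat forms in the muscle, had been injected 5 days before all 12 muscles were collected, and all samples carry 129svlmJ in the label for cell line. The labels used here name neither the Cre driver nor the animals behind the samples, and RNA came from whole muscle lysate, so every cell type of the muscle contributes. A lower level in such bulk RNA cannot be told apart from fewer cells of a type.

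In canonical Wnt signalling, a Wnt ligand stops the destruction complex from degrading beta-catenin, which then enters the nucleus and acts through TCF/LEF factors bound to DNA. Without beta-catenin these factors recruit corepressors and keep target genes low. Axin2, Nkd1 and Nkd2 are targets in many tissues and dampen the signal in turn, Axin2 as a scaffold of the destruction complex and the Nkd genes at the level of Dishevelled. Tcf7 and Lef1 have a second role in lymphocytes: Tcf7 encodes TCF-1, a factor of T cell development and of naive and memory T cells, and both genes are used by innate lymphoid cells. A change of Tcf7 in whole muscle can therefore be set beside the Wnt feedback genes or beside the genes of T cells.

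The 4 factors bind DNA through an HMG box, which is their most conserved part, so the coding sequences below show how alike the genes are where reads could be confused. Each is a stretch of 90 bases of the longest coding sequence in GENCODE M21 (mouse genome GRCm38), read 5′ to 3′, and capitals mark the 65 positions that are identical in all 4 genes.
Tcf7: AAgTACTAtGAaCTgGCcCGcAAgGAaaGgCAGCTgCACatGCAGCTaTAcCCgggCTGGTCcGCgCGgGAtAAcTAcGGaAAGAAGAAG
Tcf7l1: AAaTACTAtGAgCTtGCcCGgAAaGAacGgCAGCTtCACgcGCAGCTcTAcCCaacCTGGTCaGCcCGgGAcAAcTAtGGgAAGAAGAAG
Tcf7l2: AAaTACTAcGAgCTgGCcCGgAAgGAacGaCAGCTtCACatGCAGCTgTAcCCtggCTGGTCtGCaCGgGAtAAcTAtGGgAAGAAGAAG
Lef1: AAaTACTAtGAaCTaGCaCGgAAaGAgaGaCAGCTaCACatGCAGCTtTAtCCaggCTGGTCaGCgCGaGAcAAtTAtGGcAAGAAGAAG

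Within this stretch Tcf7l2 matched Tcf7 at 77 of 90 bases (85.6%), Lef1 at 73 (81.1%) and Tcf7l1 at 72 (80%). Over the whole aligned coding sequence the identity to Tcf7 was 61.7% for Lef1, 61.4% for Tcf7l2 and 59.5% for Tcf7l1. No run of 50 bases of the longest Tcf7, Tcf7l1 or Tcf7l2 transcript occurred in another gene, and in Lef1 1.14% of such runs did, none of them in another TCF/LEF gene. Tcf7 lies on chromosome 11 from base 52252371 to 52283014 on the minus strand of GRCm38, as the gene table gives it. Axin2 lies on the same chromosome from base 108920349 to 108950783, and the others on chromosomes 6 (Tcf7l1), 19 (Tcf7l2), 3 (Lef1), 9 (Ctnnb1), 8 (Nkd1) and 13 (Nkd2). The antisense gene A630014C17Rik and the lincRNA Gm26551 lie across it but share 0 exon bases with it. The sources used here do not give the strand setting of the counting, and 4 members share exon bases with a gene on the opposite strand: Lef1 with Gm43352 (1208 bases), Ctnnb1 with Ulk4 (759), Axin2 with Gm11670 (209) and Tcf7l1 with Gm15401 (179). Counts per gene do not separate isoforms of Tcf7, whose long and short forms differ in the part that binds beta-catenin. A start codon with an open reading frame lies just outside the gene as the table gives it, within bases 52283015 to 52283264. Reads from there were not counted for Tcf7, so the counts may lack a part of the long form.

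Library totals ran between 15716056 and 29790720 counts. Pparg fell to 26.4 ± 10.3 CPM (counts scaled to a common library size) in knockout muscles, against 57.4 ± 8.27 CPM in control muscles (SD, n = 6 each; adjusted p = 0.0299, edgeR quasi-likelihood), with no overlap between the groups. The adipocyte score, the mean log2 CPM of 14 marker genes, was 4.96 ± 1.12 in knockout muscles and 6.81 ± 0.32 in control muscles, lower in 6 of 6 knockout libraries than in any control (two-sided exact permutation p = 0.00216, the smallest possible, 0.0346 adjusted over 16 scores). Without each library in turn, Pparg fell by 1.00 to 1.32 on the log2 scale and passed in 4 of 12 fits (edgeR quasi-likelihood, adjusted p from 0.00769 to 0.0856). Acta1, the actin of skeletal muscle fibres, had 12198 ± 3354 CPM in knockout muscles and 10911 ± 3260 CPM in control muscles (SD, n = 6 each), so fibre RNA was abundant in both groups. The libraries may not all be separate animals. At 25 loci with discrete high and low states, 4 pairs of libraries had the same state at 92% or more of the loci (knockout replicates 3 and 4, knockout replicates 5 and 6, control replicates 2 and 3, control replicates 4 and 5), while all other pairs within a group had the same state at 76% or fewer. Counts within every pair differed by more than sampling noise, so no library was counted as a duplicate. If the pairs share an animal or a litter, p-values over 12 libraries are too small, and the main results are therefore also given for the 8 sets. With counts summed over sets, 0 of 17508 genes passed in edgeR and 1015 had an unadjusted p under 0.05. Pparg then had 34.2, 43.5, 20.8 and 19.4 CPM in the knockout sets, against 54.3, 54.6, 59.7 and 59.2 CPM in the control sets, still without overlap but no longer past the threshold (edgeR adjusted p = 0.334). The adipocyte score was lower in 4 of 4 knockout sets than in any control set (two-sided exact permutation p = 0.0286, the smallest possible, 0.457 adjusted over 16 scores).

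Tcf7 was higher in the knockout. It had 9.98, 10.4, 10.7, 10.6, 11.2 and 8.86 CPM in knockout replicates 1 to 6, against 8.11, 8.89, 5.83, 5.54, 6.11 and 5.63 CPM in control replicates 1 to 6. All knockout libraries but replicate 6 lay above every control library, and replicate 6 lay just under control replicate 2. Tcf7 averaged 10.3 ± 0.81 CPM in knockout muscles and 6.68 ± 1.44 CPM in control muscles (SD, n = 6 each), a log2 fold change of 0.62 (SE 0.13, 95% interval 0.34 to 0.91). In the comparison that chose it, 131 of 16393 genes (0.799%) had an adjusted p under 0.05 (edgeR quasi-likelihood, Benjamini-Hochberg), 8 of them higher (0.0488% of genes tested) and 123 lower (0.75%), and Tcf7 came last of the 8 by p. That count was between 6 and 214 with 1 library left out (6 without knockout replicate 3), and Tcf7 was within it in 1 of 12 such fits. It stood at rank 127 with an adjusted p of 0.0457, close to the edge: the last gene inside was Wscd2 at 0.0495 and the first outside was Prkar2b at 0.05005. With counts summed over sets, Tcf7 had 10.1, 10.5, 10.7 and 9.95 CPM in the knockout sets, against 8.09, 7.26, 5.85 and 5.72 CPM in the control sets, and the groups did not overlap. The libraries that overlapped singly were summed there with others, knockout replicate 6 with replicate 5 and control replicate 2 with replicate 3. Over sets the groups did not overlap either for Lef1 (0.564 to 1.19 CPM in the knockout, 0.361 to 0.536 CPM in controls) and Tcf7l2 (25.7 to 30.7 and 31.3 to 37.6 CPM). The share of all genes without overlap over sets was not computed.

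**Figure D1:**
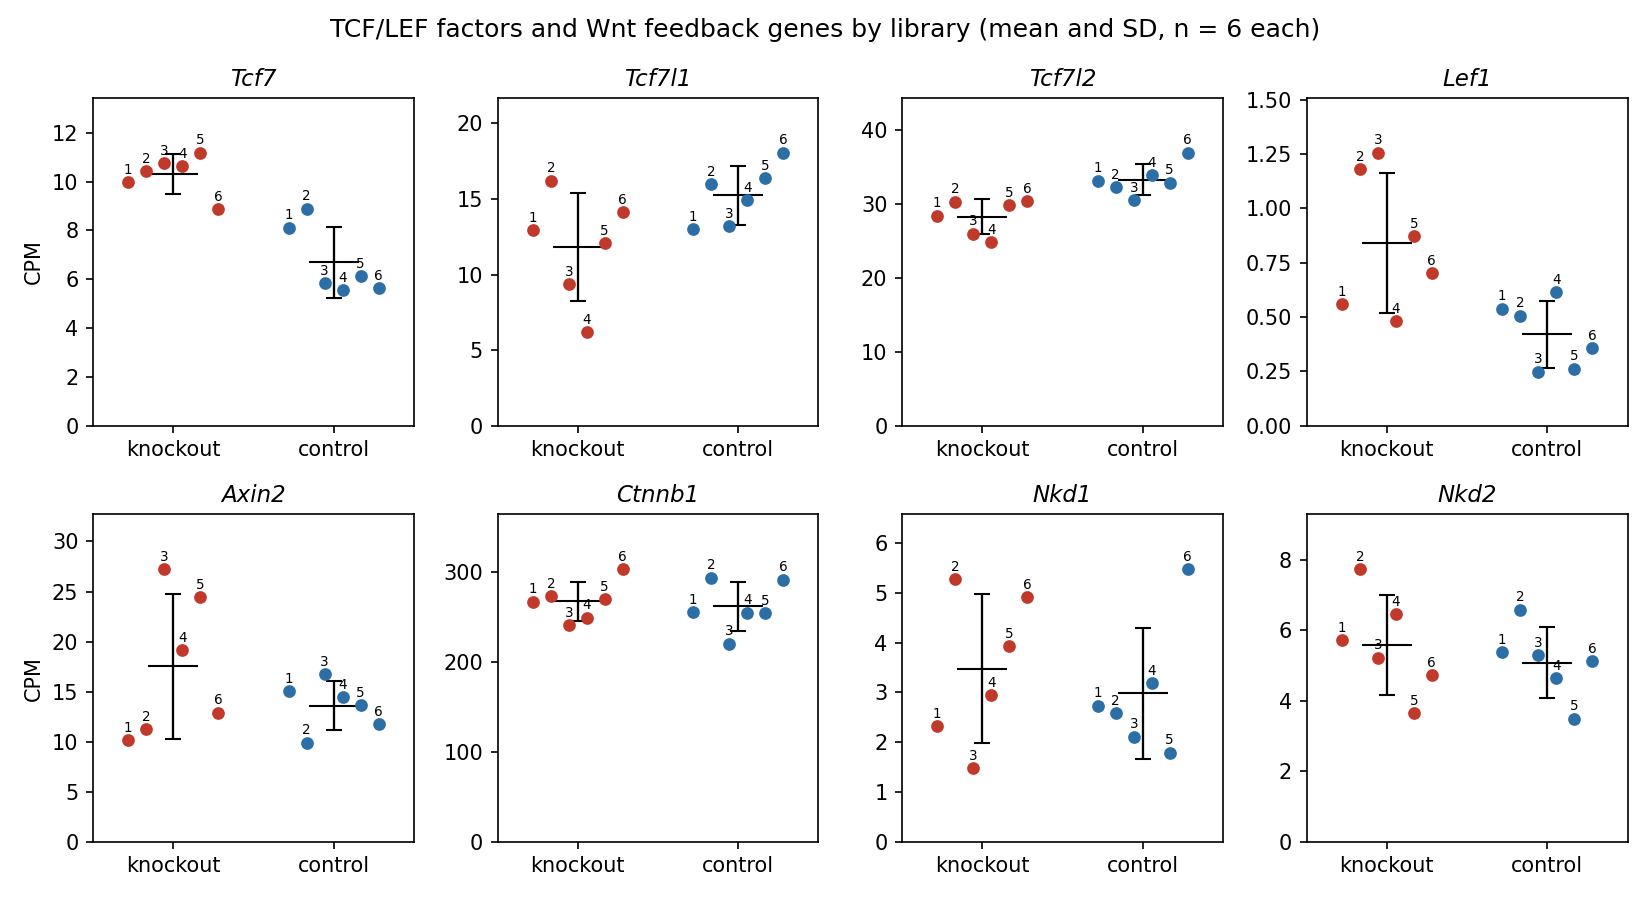
CPM of the 8 members in each library, with knockout libraries left of control libraries in each panel, replicate numbers above the points, and bars for the mean and SD (n = 6 each). Tcf7 is higher in the knockout with 1 library in the control range, Tcf7l2 is lower with no overlap, and Axin2 is widely spread in the knockout, between 10.2 and 27.3 CPM.

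Tcf7l2, a TCF factor of many adult tissues that is also known for its place in mesenchymal cells of muscle, was the only member whose groups did not overlap over the 12 libraries. It had 28.5, 30.4, 26.01, 24.8, 29.9 and 30.4 CPM in knockout replicates 1 to 6, against 33.2, 32.3, 30.6, 33.9, 32.9 and 37.0 CPM in control replicates 1 to 6. The highest knockout library (30.44 CPM) lay just under the lowest control library (30.57 CPM). The difference was small and missed the threshold (log2 fold change -0.23, SE 0.07, edgeR adjusted p = 0.186). Groups that do not overlap were found for 1.43% of all genes tested, 1.27% in the lower direction.

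Tcf7l1, the TCF factor best known as a repressor, stood at 12.9, 16.2, 9.39, 6.18, 12.1 and 14.1 CPM in knockout replicates 1 to 6. Control replicates 1 to 6 had 12.99, 15.98, 13.2, 14.9, 16.4 and 18.1 CPM. The groups overlapped, and knockout replicates 3 and 4, a pair with like locus states, were the lowest of all libraries together with replicate 5. The log2 fold change of -0.37 (SE 0.18) did not pass (adjusted p = 0.581, edgeR quasi-likelihood).

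Lef1, the lymphoid enhancer factor, was at the edge of detection. It had 13, 21, 38, 7, 16 and 16 counts in knockout replicates 1 to 6, against 11, 11, 6, 11, 6 and 7 counts in control replicates 1 to 6. The mean was 0.841 ± 0.321 CPM in knockout muscles and 0.421 ± 0.154 CPM in control muscles (SD, n = 6 each). Knockout replicates 1 and 4 lay within the control range and the other 4 above it. The log2 fold change of 1.02 was the largest among the members and had a wide error (SE 0.32, edgeR adjusted p = 0.219), and with 1208 exon bases shared with an antisense gene its reads could not all be assigned with certainty.

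Axin2, the feedback target most widely used as a readout of canonical Wnt signalling, was widely spread in the knockout. It had 10.2, 11.3, 27.3, 19.1, 24.4 and 12.9 CPM in knockout replicates 1 to 6, against 15.05, 9.90, 16.8, 14.5, 13.7 and 11.8 CPM in control replicates 1 to 6. Knockout replicates 3, 4 and 5 lay above all controls, while replicates 1, 2 and 6 lay inside the control range. The mean was 17.5 ± 7.21 CPM in knockout muscles and 13.6 ± 2.44 CPM in control muscles (SD, n = 6 each), with a log2 fold change of 0.37 (SE 0.24, edgeR adjusted p = 0.745). The spread in the knockout was 7.76 times what counting alone would give.

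The other Wnt members overlapped widely between the groups. Nkd1 averaged 3.48 ± 1.49 CPM in knockout muscles and 2.98 ± 1.32 CPM in control muscles (log2 fold change 0.22, SE 0.33, adjusted p = 0.936), with libraries between 1.49 and 5.27 CPM in the knockout and between 1.79 and 5.48 CPM in controls. Nkd2 averaged 5.59 ± 1.41 CPM in knockout muscles and 5.09 ± 1.01 CPM in control muscles (log2 fold change 0.13, SE 0.19, adjusted p = 0.929), with libraries between 3.66 and 7.74 CPM in the knockout and between 3.49 and 6.59 CPM in controls. Both encode naked cuticle proteins, which bind Dishevelled. Ctnnb1 averaged 267 ± 21.7 CPM in knockout muscles and 261 ± 27.4 CPM in control muscles, and its 95% interval for the log2 fold change ran only from -0.15 to 0.21 (edgeR adjusted p = 0.974). Of the 7 members other than Tcf7, 0 passed an adjusted p of 0.05 in edgeR, DESeq2 or limma-voom, and 2 (Tcf7l2 and Lef1) had an unadjusted p under 0.05, which 9.47% of all genes tested had.

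Per length, the TCF/LEF genes had another order of means in each group. In FPKM, the authors' counts scaled for gene length and library depth, Tcf7 had 3.90 ± 0.29 in knockout muscles and 2.51 ± 0.54 in control muscles. Tcf7l2 had 3.22 ± 0.28 FPKM in knockout muscles and 3.77 ± 0.25 FPKM in control muscles. Tcf7l1 had 2.99 ± 0.91 FPKM in knockout muscles and 3.84 ± 0.50 FPKM in control muscles (SD, n = 6 each). Tcf7 thus had the highest mean of the 4 in the knockout and the third in controls, although its range overlapped those of Tcf7l1 and Tcf7l2 in the knockout and that of Tcf7l1 in controls. Lef1 stayed far below, at 0.095 ± 0.036 FPKM in knockout muscles and 0.047 ± 0.017 FPKM in control muscles.

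Of the summed FPKM of the 4 genes, Tcf7 made up 38.6 ± 5.76% in knockout muscles and 24.7 ± 4.52% in control muscles. Its share ran between 32.03% and 47.5% in knockout libraries, against 19.5% and 30.2% in control libraries, without overlap. This rests on the gene chosen for its rise and is a description. Among the other members, Ctnnb1 was by far the highest per length, at 51.1 ± 4.29 FPKM in knockout muscles and 49.7 ± 5.29 FPKM in control muscles. Axin2 had 3.16 ± 1.29 FPKM in knockout muscles and 2.44 ± 0.43 FPKM in control muscles, above Nkd2 and Nkd1, whose means lay between 0.65 and 1.15 FPKM in both groups.

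**Figure D2:**
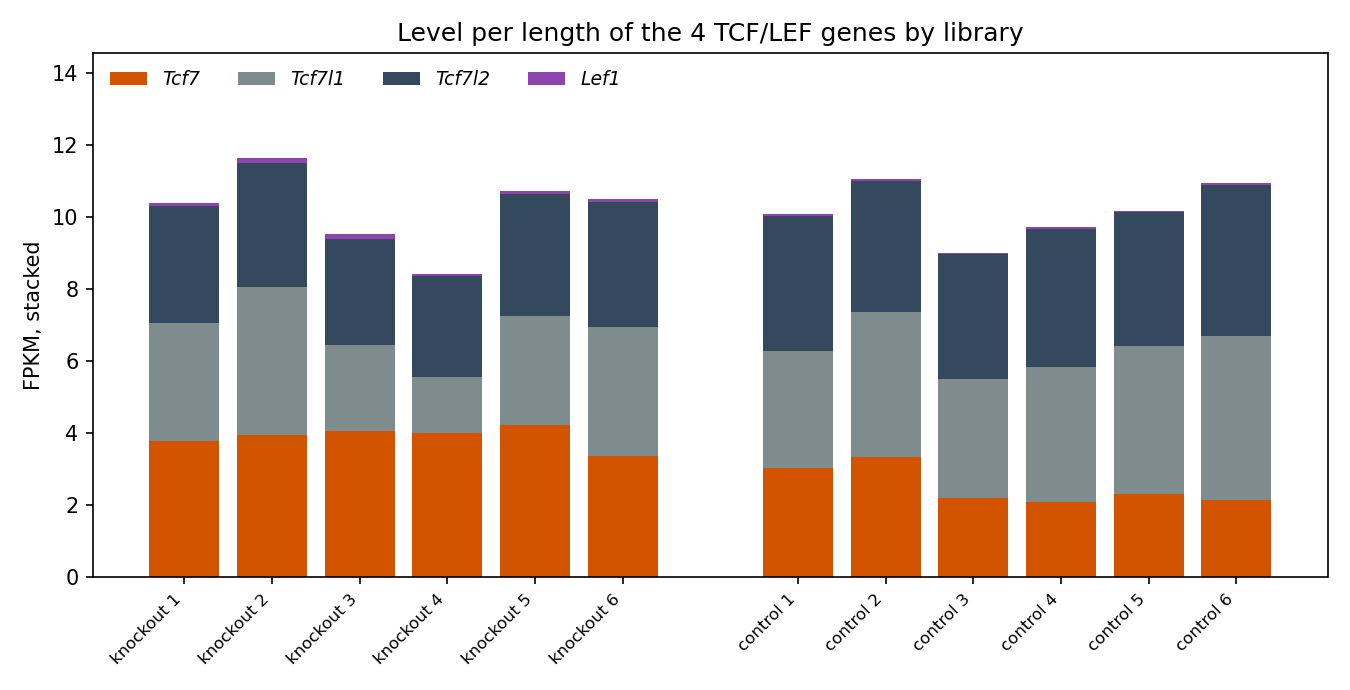
FPKM of Tcf7, Tcf7l1, Tcf7l2 and Lef1 stacked for each library, 6 knockout libraries left of 6 control libraries. The Tcf7 part is between 3.37 and 4.21 FPKM in the knockout and between 2.08 and 3.34 FPKM in controls, and Lef1 is barely visible.

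Other genes of the Wnt pathway gave 0 calls in edgeR. Of 14 feedback genes outside the members, 8 were expressed enough to be tested and 0 passed (edgeR quasi-likelihood, adjusted p of 0.05, against 0.799% of all genes), with 6 of 8 positive fold changes and a median log2 fold change of 0.09. At an unadjusted p under 0.05 there were 4 of 8, against 9.47% of all genes. DESeq2 called 1 of the 8, against 2.43% of all genes, and limma-voom 0, against 2.37%. Over all genes tested, 49.5% were positive and the median was 0.00. Apcdd1, a membrane-bound Wnt inhibitor, had the smallest p of the 8, at 8.36 ± 4.03 CPM in knockout muscles and 16.3 ± 5.95 CPM in control muscles (log2 fold change -0.96, adjusted p = 0.202). Kremen1, a receptor for Dkk inhibitors, had 107 ± 27.1 CPM in knockout muscles and 81.4 ± 6.98 CPM in control muscles (adjusted p = 0.340). The stem cell receptor gene Lgr5 had 1.99 ± 0.86 CPM in knockout muscles and 1.24 ± 0.25 CPM in control muscles (adjusted p = 0.515). Lgr6, Rnf43, Notum, Sp5, Dkk1 and Dkk4 had at most 21 counts in any library and were not tested.

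Among 13 tested genes of the broad Wnt response, 0 passed in edgeR and the median log2 fold change was 0.03. At an unadjusted p under 0.05 there were 3 of 13, against 9.47% of all genes, and DESeq2 called 2 and limma-voom 1, against 2.43% and 2.37% of all genes. Ccnd2, a D-type cyclin, came nearest, at 37.7 ± 6.15 CPM in knockout muscles and 52.6 ± 7.22 CPM in control muscles (log2 fold change -0.48, edgeR adjusted p = 0.0769). The 15 tested genes of the destruction complex, which marks beta-catenin for degradation, had log2 fold changes between -0.17 and 0.13, and 0 passed in edgeR. The 9 genes of Dishevelled and the receptor level lay between -0.0018 and 0.21, with 8 positive (49.5% of all genes were), and 0 passed. Their score was 5.01 ± 0.09 in knockout muscles and 4.93 ± 0.05 in control muscles, with 4 of 6 knockout libraries above all controls (two-sided exact permutation p = 0.0606, not adjusted). The scores of the other Wnt lists outside the members had an exact permutation p between 0.595 and 0.946. The 22 TCF cofactors and corepressors, such as Tle1 and the beta-catenin inhibitor Ctnnbip1, lay between -0.18 and 0.18, and 0 passed. In these 3 lists 1, 0 and 1 genes had an unadjusted p under 0.05, against 9.47% of all genes, and DESeq2 and limma-voom also called 0.

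T cell and NK genes stood at low levels and had mostly positive fold changes, while naive and memory lymphocyte and B cell genes were split. Of 25 T cell genes, 21 were tested, 19 had a positive fold change and 0 passed in edgeR, DESeq2 or limma-voom (median log2 fold change 0.47, 7 at an unadjusted p under 0.05, against 9.47% of all genes). Trbc1, a constant region of the T cell receptor beta chain, had 2.58 ± 1.06 CPM in knockout muscles and 1.18 ± 0.76 CPM in control muscles (log2 fold change 1.11, SE 0.37, edgeR adjusted p = 0.260). Lck, the kinase of early T cell receptor signalling, had 3.86 ± 1.61 CPM in knockout muscles and 2.13 ± 0.89 CPM in control muscles (adjusted p = 0.358). The T cell score, the mean log2 CPM of the 21 genes, was 0.98 ± 0.34 in knockout muscles and 0.51 ± 0.44 in control muscles (n = 6 each, two-sided exact permutation p = 0.0693, 0.225 adjusted over 16 cell type scores), and over the 8 sets the p was 0.143 (exact permutation).

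The same direction was seen in all 18 tested NK and cytotoxic genes, with a median log2 fold change of 0.93 and 0 past the threshold in edgeR (8 of 18 at an unadjusted p under 0.05, against 9.47% of all genes, 2 called by DESeq2, against 2.43%, and 0 by limma-voom). Il2rb, the receptor chain for IL-2 and IL-15, had the smallest p, at 6.91 ± 2.36 CPM in knockout muscles and 2.99 ± 1.49 CPM in control muscles (log2 fold change 1.20, SE 0.31, edgeR adjusted p = 0.0979). Gzma, a granzyme of cytotoxic cells, had 7.47 ± 2.09 CPM in knockout muscles and 3.13 ± 1.88 CPM in control muscles (adjusted p = 0.132). The NK and cytotoxic score was 1.11 ± 0.39 in knockout muscles and 0.15 ± 0.71 in control muscles (n = 6 each, two-sided exact permutation p = 0.0173, 0.139 adjusted over 16 scores), and over the 8 sets the p was 0.114 (exact permutation). Genes of naive and memory lymphocytes, where TCF-1 is best known, were split: 6 of 11 were positive, the median was 0.02 and 0 passed in edgeR, DESeq2 or limma-voom, also at an unadjusted p under 0.05 in edgeR. Of these, Slamf6 had 2.99 ± 0.99 CPM in knockout muscles and 2.94 ± 0.23 CPM in control muscles (adjusted p = 0.997), and several genes of the list, such as Actn1 and Klf2, are also expressed in other cells of muscle.

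The innate lymphoid and gamma delta T list had 7 of 15 genes tested, with 5 positive fold changes, a median of 0.15 and 0 past the threshold in edgeR, DESeq2 or limma-voom. Of these, 2 had an unadjusted p under 0.05, against 9.47% of all genes. Both were higher in the knockout: Trdc, the constant region of the T cell receptor delta chain (log2 fold change 0.83, edgeR adjusted p = 0.305), and Gata3, a factor of helper T cells and group 2 innate lymphoid cells (0.96, edgeR adjusted p = 0.383). B cell genes were split: 7 of 12 were tested, 3 were positive and the median was -0.10. In edgeR 0 passed, while DESeq2 called 0 and limma-voom 1, against 2.37% of all genes in limma-voom. At an unadjusted p under 0.05 in edgeR there were 2, against 9.47% of all genes, both lower in the knockout. They were Ighm, the heavy chain of IgM (log2 fold change -0.49, edgeR adjusted p = 0.333), and Ebf1 (-0.34, edgeR adjusted p = 0.482), a B cell factor that is also expressed in mesenchymal cells.

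**Figure D3:**
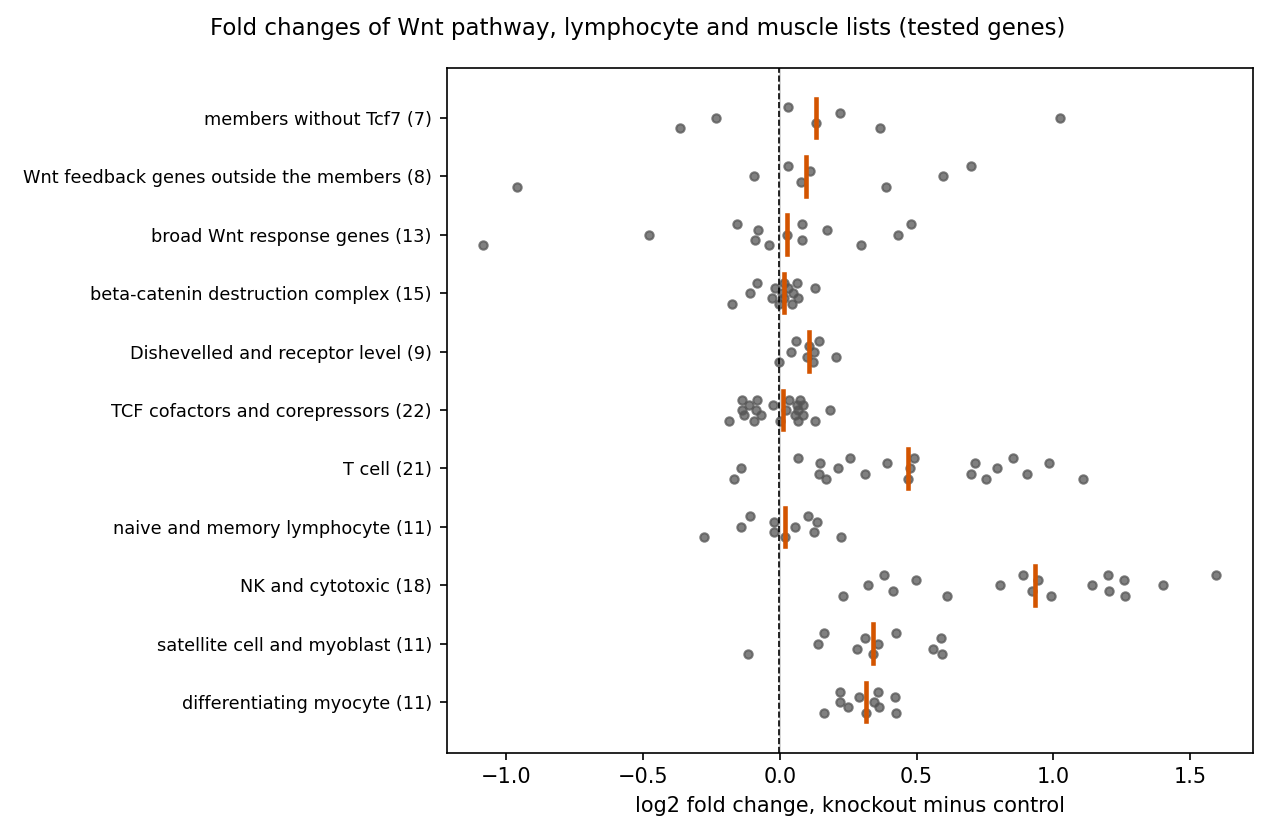
Log2 fold change of each tested gene (points), knockout minus control, by list, with the number of genes tested in brackets, the list median as an orange bar and the median of all genes as a dashed line. T cell and NK genes lie mostly right of the dashed line (medians 0.47 and 0.93), the Wnt lists outside the members around it (medians 0.01 to 0.11). Satellite cell and myoblast and differentiating myocyte genes also lie mostly right of it (medians 0.34 and 0.32). The members without Tcf7 have a median of 0.13, the value of Nkd2.

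Per length, Tcf7 was above every tested T cell gene in both groups. Its means of 3.90 FPKM in knockout muscles and 2.51 FPKM in control muscles compare with a median over the 21 T cell genes of 0.793 FPKM in knockout muscles and 0.606 FPKM in control muscles. The highest T cell genes were Trbc1 at 3.42 FPKM in knockout muscles and Trbc2 at 2.26 FPKM in control muscles. Such a comparison depends on the gene lengths of the table and says nothing of which cells held the Tcf7 RNA.

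Whether Tcf7 follows the feedback genes or the T cell genes was examined inside the groups, on deviations of log2 CPM from the group mean. These do not use the difference between the groups, but the adjusted p that also chose Tcf7 depends on the spread within them. Tcf7 was compared with the 7 other members and 16 cell type scores, 23 relations in all. Of these, 1 had a permutation p under 0.05 (within-group exact permutation, 12 libraries) and 0 had an adjusted p under 0.05. The depth sets a limit here: the SD of Tcf7 over knockout libraries was 0.81 CPM, against 0.719 CPM from counting alone, so there was little variation beyond counting in that group. In controls the SD was 1.44 CPM, against 0.564 CPM from counting, and control replicates 1 and 2 carried most of it.

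A relation of Tcf7 with Axin2 common to both groups was not detectable. Pearson's r was 0.03 (exact permutation p = 0.884, adjusted p = 0.984) and Spearman's rho 0.18 (p = 0.507), over 12 libraries. The sign differed between the groups, with r = 0.62 in the knockout (exact permutation p = 0.178) and r = -0.46 in controls (p = 0.360), and the difference between them was not tested. The value depended on which libraries were left out: r was -0.05 without the 2 farthest from the median in Axin2, knockout replicates 1 and 3 (exact permutation p = 0.863), and 0.57 without the 2 farthest in Tcf7, control replicates 1 and 2 (p = 0.161). Knockout replicates 3 and 5, the highest in Axin2, had 10.7 and 11.2 CPM of Tcf7, whereas control replicate 2 combined the lowest Axin2 with the highest Tcf7 of its group. With Nkd1, r was -0.23 (exact permutation p = 0.484). With Nkd2, r was 0.33 (exact permutation p = 0.287, adjusted p = 0.843), close to the values for the T cell and NK scores. Without the 2 libraries farthest in Nkd2 it was 0.60 (exact permutation p = 0.0129), and without the 2 farthest in Tcf7 it was -0.17 (p = 0.688), so it rested on few libraries.

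With the T cell score, r was 0.37 (exact permutation p = 0.312, adjusted p = 0.843) and rho 0.34 (p = 0.337), with r = 0.42 in the knockout and r = 0.37 in controls. Without the 2 libraries farthest in the score r was 0.39 (exact permutation p = 0.396), and without control replicate 1 alone it was 0.19 (p = 0.708). No score was examined without both control replicates 1 and 2, so no score can be set beside the 0.57 of Axin2 without them. Of the 21 T cell genes, 18 had a positive r with Tcf7, with a median of 0.27 and the highest value at 0.57 for the adhesion receptor gene Cd2. Values of this size were not particular to lymphocyte scores. The neutrophil and Schwann cell scores each had r = 0.34 (exact permutation p = 0.318 and 0.395). The mural cell score had r = 0.58 (exact permutation p = 0.0607, adjusted p = 0.698), and all 8 of its genes had a positive r. With the NK and cytotoxic score, r was 0.35 (exact permutation p = 0.403, adjusted p = 0.843) and rho 0.27 (p = 0.437). Without control replicates 1 and 5, the farthest from the median, r was -0.01 (exact permutation p = 0.977), so that r rested on those 2 libraries.

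The naive and memory lymphocyte score, the list closest to the known role of TCF-1, had r = -0.07 with Tcf7 (exact permutation p = 0.823, adjusted p = 0.984) and rho = -0.34 (p = 0.277), and 4 of its 11 genes had a positive r. Without the 2 farthest libraries, knockout replicate 2 and control replicate 1, r was -0.81 (exact permutation p = 0.0246). Several genes of this list are also expressed in other cells of muscle. Its median was 3.52 FPKM in knockout muscles, against 0.793 FPKM for the T cell genes, so the score may not measure lymphocytes alone. The innate lymphoid and gamma delta T score had r = 0.01 (exact permutation p = 0.961; rho = 0.14, p = 0.661), and the B cell score r = 0.21 (exact permutation p = 0.596; rho = 0.06, p = 0.881).

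Over the 8 sets the values for the lymphocyte scores were higher, and the difference from those over 12 libraries was not tested. Tcf7 had r = 0.81 with the T cell score (exact permutation p = 0.0139, adjusted p = 0.186; rho = 0.76, p = 0.0451) and r = 0.81 with the NK and cytotoxic score (exact permutation p = 0.0243, adjusted p = 0.186; rho = 0.60, p = 0.135). The r was 0.76 for the B cell score (exact permutation p = 0.0556), 0.46 for innate lymphoid and gamma delta T (p = 0.109) and 0.38 for naive and memory lymphocytes (p = 0.352). Its r with Axin2 over the sets was 0.23 (exact permutation p = 0.188; rho = 0.24, p = 0.441). None of the 23 relations over sets passed adjustment. Endothelium was the only other score with an unadjusted p under 0.05 there, with r = -0.49 (exact permutation p = 0.0208).

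The closest score over the 12 libraries was that of differentiating myocytes, a list of genes such as myogenin (Myog) and the fusion factor Mymk. Its r with Tcf7 was 0.65 (exact permutation p = 0.0123, adjusted p = 0.282) and rho 0.59 (p = 0.0283). By group r was 0.51 in the knockout (exact permutation p = 0.308) and 0.92 in controls (p = 0.0514). Control replicates 1 and 2, the highest in Tcf7 of their group, had scores of 8.59 and 8.66. Control replicates 3 to 6 had 8.27, 8.29, 8.13 and 8.23, and replicate 5, the highest of these in Tcf7 (6.11 CPM), had the lowest score. The r without both control replicates 1 and 2 was not examined. Without the 2 libraries farthest in the score, r over both groups was 0.60 (exact permutation p = 0.0699), and over the 8 sets it was 0.54 (p = 0.0868). All 11 genes of the list had a positive r with Tcf7 (median 0.53). All 11 also had a positive log2 fold change in the knockout (median 0.32), against 49.5% of all genes tested. In edgeR, DESeq2 and limma-voom 0 of them passed, and 4 had an unadjusted p under 0.05 in edgeR, against 9.47% of all genes. The score itself was 8.66 ± 0.30 in knockout muscles and 8.36 ± 0.21 in control muscles (n = 6 each, two-sided exact permutation p = 0.0779, 0.225 adjusted over 16 scores). The score of satellite cells and myoblasts, the muscle precursors, had r = 0.34 (exact permutation p = 0.123) and rho = 0.59 (p = 0.0284). By group r was 0.19 in the knockout (exact permutation p = 0.706) and 0.83 in controls (p = 0.0361). Of its 11 genes, 10 had a positive log2 fold change (median 0.34) and 5 an unadjusted p under 0.05 in edgeR. None passed in edgeR, while DESeq2 and limma-voom each called 2, against 2.43% and 2.37% of all genes.

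**Figure D4:**
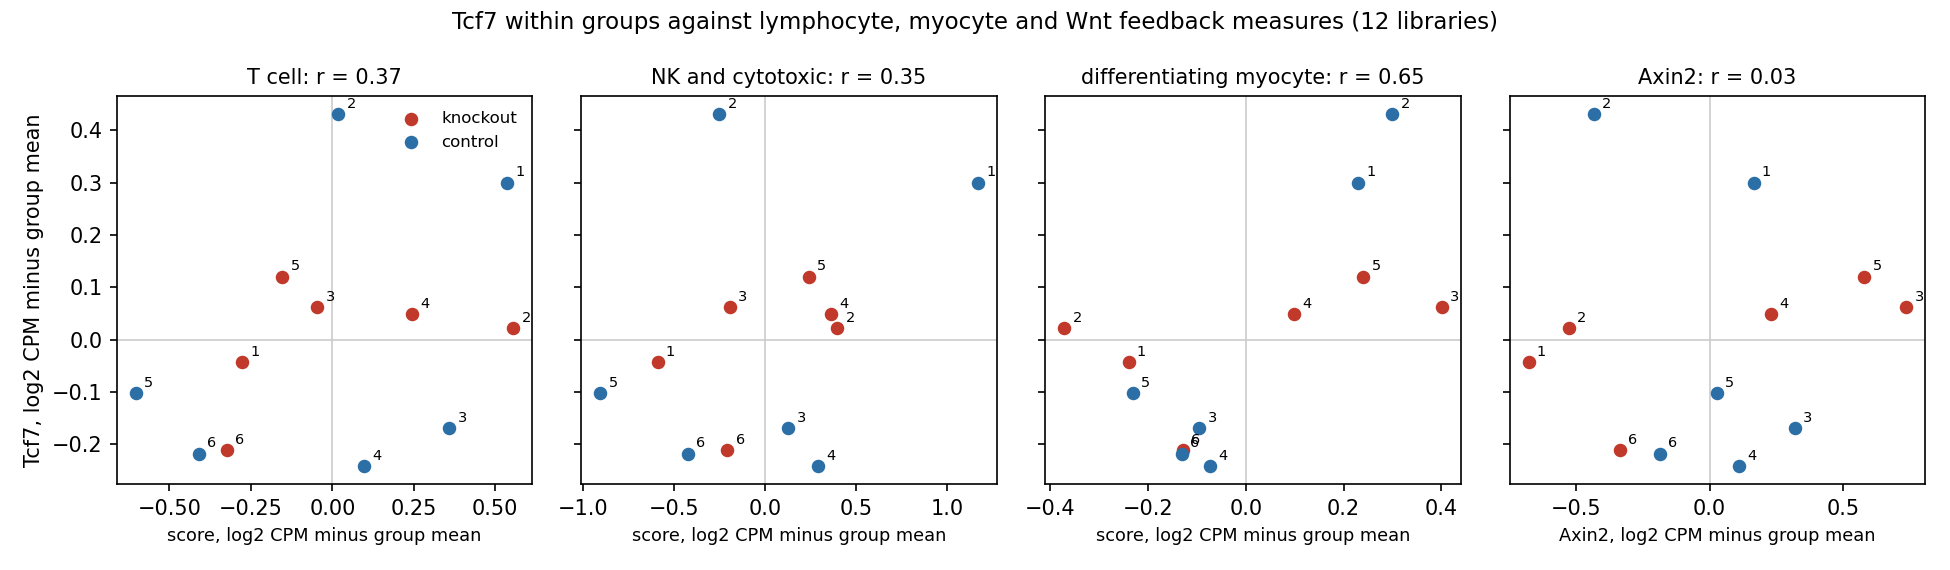
Deviation of Tcf7 from its group mean (log2 CPM) against that of the T cell, NK and cytotoxic and differentiating myocyte scores and of Axin2, one point per library with its replicate number. Pearson's r over the 12 libraries is 0.37, 0.35, 0.65 and 0.03 from left to right, and the knockout points span less of the Tcf7 axis than the control points.

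**Figure D5:**
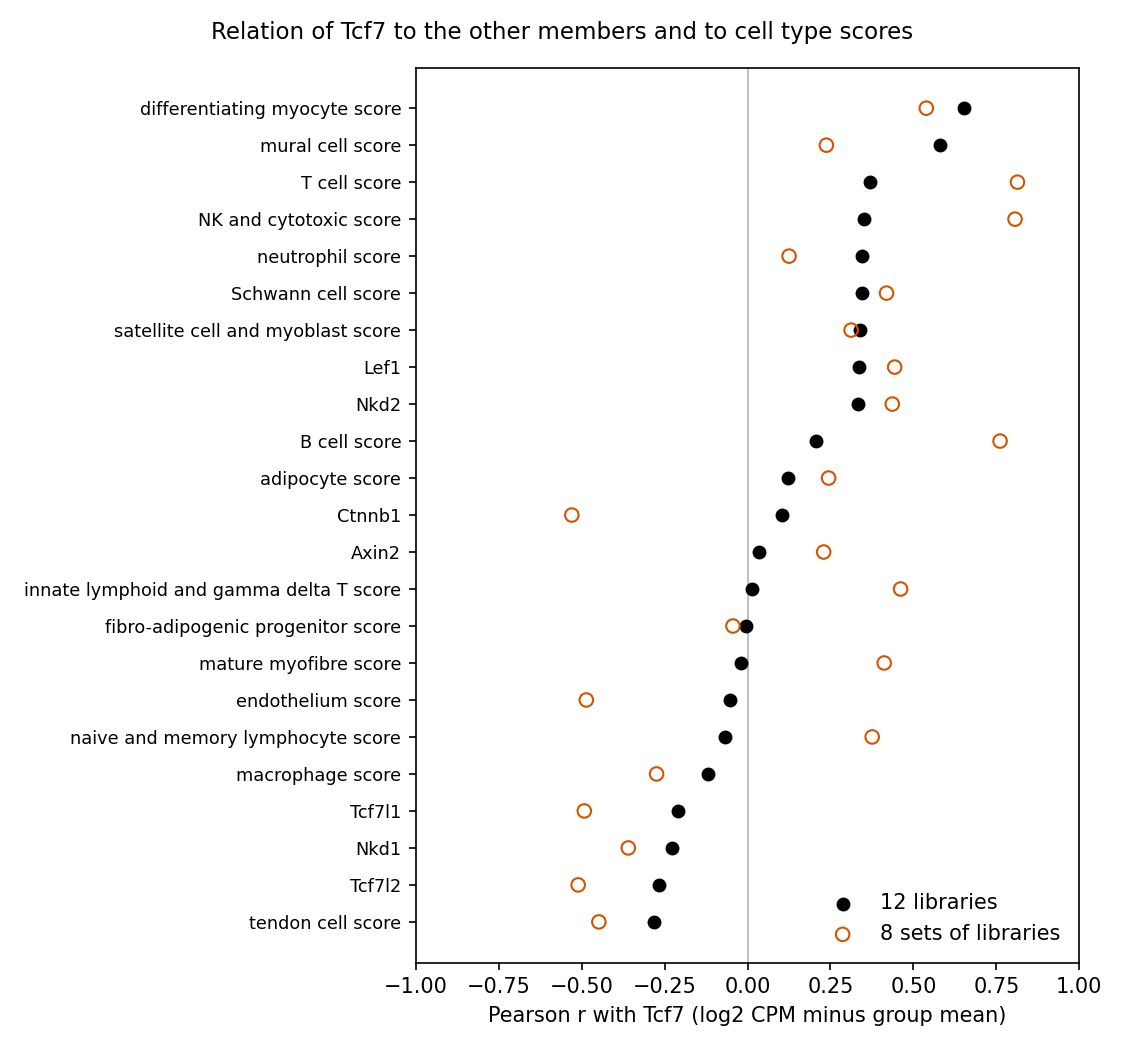
Pearson's r of Tcf7 with each other member and each cell type score, on deviations from the group mean, over 12 libraries (filled) and over 8 sets of libraries (open). T cell and NK scores move to 0.81 over sets, Axin2 lies at 0.03 and 0.23, and Tcf7l1, Tcf7l2 and Nkd1 are below 0 both ways.

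Entering a measure as a covariate of the group comparison changed the log2 fold change of Tcf7 by different amounts. It was 0.62 with Axin2 as a covariate, 0.52 with the T cell score, 0.50 with the NK and cytotoxic score and 0.47 with the differentiating myocyte score, against 0.62 without a covariate. The scores differ in mean between the groups themselves, so their share and that of the genotype cannot be told apart in such a fit.

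Of all 12527 protein-coding genes whose mean log2 CPM was 1 or more, those most like Tcf7 within the groups were mostly not lymphocyte genes. The 10 highest were Sh3glb2, D630003M21Rik, Tnni1, Bok, Rpl41, Rpl8, Gper1, Thoc6, Zfp78 and Tlcd1, with r between 0.85 and 0.82 over 12 libraries. Tnni1 encodes the troponin I of slow muscle fibres and had r = 0.96 with Tcf7 in the knockout and 0.92 in controls. Rpl41 and Rpl8 encode ribosomal proteins and Bok a member of the Bcl-2 family. The 5 lowest were Mlh3, Dpy19l4, Ctbs, Slfn9 and Dusp19, between -0.92 and -0.83. The best T cell gene, Cd2, was exceeded by 436 of the 12527 genes, and the best differentiating myocyte gene, the cardiac troponin T gene Tnnt2, by 144. These values are a description of the same libraries and depth, with no test.

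Tcf7l1 and Tcf7l2 varied together within the groups over the 12 libraries. Of the 28 pairs of members, 1 passed adjustment over 12 libraries and 0 over the 8 sets: Tcf7l1 and Tcf7l2, with r = 0.85 over 12 libraries (exact permutation p = 0.00106, adjusted p = 0.0297; rho = 0.82, p = 0.00407, adjusted p = 0.0725). It was 0.79 without the 2 libraries farthest in Tcf7l1 (exact permutation p = 0.0145). Over the 8 sets it was 0.87 and no longer passed adjustment (exact permutation p = 0.0156, adjusted p = 0.126). Tcf7l2 also had r = 0.77 with Nkd1 (exact permutation p = 0.00887, adjusted p = 0.0828; rho = 0.80) and r = 0.73 with Ctnnb1 (exact permutation p = 0.00866, adjusted p = 0.0828; rho = 0.75). Axin2 ran against Ctnnb1, with r = -0.62 (exact permutation p = 0.0166, adjusted p = 0.107; rho = -0.66).

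Across the 7 other members and the 16 cell type scores, 15 of 112 relations had an exact permutation p under 0.05 and 0 passed adjustment. The highest were Tcf7l1 with the macrophage score, at r = 0.86 (exact permutation p = 0.00134, adjusted p = 0.0752; rho = 0.89), and Nkd2 with the FAP score, at r = 0.86 (exact permutation p = 7.99e-04, adjusted p = 0.0752; rho = 0.71). Without the 2 libraries farthest in the member, r was 0.85 for Tcf7l1 with macrophage genes and 0.63 for Nkd2 with FAP genes. Axin2 had r = -0.83 with the macrophage score (exact permutation p = 0.0137, adjusted p = 0.219; rho = -0.83). Its r with the differentiating myocyte score was 0.62 (exact permutation p = 0.0703), at 0.97 in the knockout and -0.39 in controls. For that score r was -0.38 with Nkd1 and -0.07 with Nkd2. With the T cell score r was 0.64 for Nkd2 (exact permutation p = 0.0276, adjusted p = 0.258), 0.11 for Axin2 and 0.06 for Nkd1. The macrophage score did not stand apart between the groups, at 8.27 ± 0.33 in knockout muscles and 8.33 ± 0.15 in control muscles (n = 6 each, two-sided exact permutation p = 0.710), while the FAP score was 6.34 ± 0.21 in knockout muscles and 6.62 ± 0.19 in control muscles (n = 6 each, two-sided exact permutation p = 0.0281, 0.1501 adjusted over 16 scores).

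Words of the TCF consensus were about as frequent before the annotated starts of the members as before those of all genes. The word CTTTGAA with its variant CTTTGAT, and likewise the word CTTTGTA with its variant CTTTGTT, were searched on both strands in the 250 bases before each annotated start in RefSeq (GRCm38). They occurred in 2 of 14 member windows, 1 before a start of Tcf7l2 and 1 before a start of Lef1, against 14.8% of all 32851 windows. No window of Tcf7 or Axin2 held one of these words, which says only that these letters are not in this stretch. The Tcf7 window from base 52283015 to 52283264 holds a start codon with an open reading frame, so it may be coding sequence of a longer form. Starts that the annotation does not hold, such as any further start of a Tcf7 isoform, were not searched.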

How the data were processed

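Poly-A selected RNA of 12 whole muscle samples (6 knockout, 6 control) was sequenced on an Illumina platform, per the labels' protocols. The deposited counts are whole reads per gene without normalization, and the submitters' processing notes name fastp, HISAT2 2.0.5, featureCounts and GRCm38 (mm10). The deposited FPKM values were made by the authors from the same genes, and levels between genes were compared on them. The protocol describes directional and non-directional libraries without saying which was made. The labels do not say whether libraries of a group are separate animals, so p-values measure the spread between these samples, which may be partly technical.

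Counts were tested with edgeR 4.0.16 in R 4.3.3 (filterByExpr with a minimum count of 10 and minimum total of 15, TMM, robust quasi-likelihood, Benjamini-Hochberg over 16393 genes, threshold 0.05). Adjusted p-values of single genes are from this fit. CPM use TMM library sizes and log2 CPM a prior count of 2. Scores are means of log2 CPM over tested list genes, compared by exact permutation over 924 assignments (smallest p 0.00216). Correlations use deviations from group means, with all permutations within groups. Coding sequences were aligned with MAFFT 7.526. The steps were tested on simulated counts. The members and lists were chosen with earlier results of these data known. Genes named are the members, up to 4 genes per list with the smallest p and, for lymphocyte and Wnt feedback lists, up to 4 with the highest r to Tcf7, the 10 highest and 5 lowest by r, and Pparg; Trbc2 as the highest T cell gene per length and the genes too low to test were named after their values were seen. Values of 1 gene on the lists are not reported here, though list counts and scores include it. Alternatives were DESeq2 1.42.0 and limma 3.58.1 (voom), RLE scaling, no filter, FPKM with a pseudocount of 1, a prior count of 0.5, covariates, the replicate number as a block and each library left out; sums over sets of libraries (also for Pparg and the scores) and the mitochondrial and myocyte covariates were added after the data were seen.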

Additional observations from a re-analysis of the deposited data

Results flagged for a closer look

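Of 58 groups of 6 libraries examined (the 8 members and the 21 scores of cell type and Wnt pathway lists, in both genotypes), 2 held a library whose gap to its nearest neighbour was large against the range of its group, and chance flags about 1 in 20 groups. The neutrophil score of control replicate 2 was 3.38, with the other 5 controls at or below 2.07 and a group median of 1.74. The mature myofibre score of knockout replicate 6 was 9.40, with the other 5 knockout libraries at or above 10.79 and a group median of 10.94. No member was flagged. Control replicate 2 had the highest Tcf7 of its group (8.89 CPM) and knockout replicate 6 the lowest of its own (8.86 CPM); the part of the 2 scores in these levels was not tested.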

How the results depend on the processing

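The log2 fold change of Tcf7 was between 0.47 and 0.72 under every alternative run; since this comparison chose the gene, the values are a description. Its adjusted p was above the threshold with a T cell (0.52), NK and cytotoxic (0.50), Axin2 (0.62), myocyte (0.47) or mitochondrial (0.61) covariate and with counts summed over sets (0.62, adjusted p = 0.277, edgeR quasi-likelihood, 17508 genes, 8 sets); the cause was not tested. With each library left out it ran from 0.58 to 0.72, with an adjusted p between 0.0484 and 0.117 (edgeR quasi-likelihood), under the threshold in 1 of 12 fits. The count of genes past the threshold was 399 with DESeq2, 389 with limma-voom and 0 over sets (1015 at an unadjusted p under 0.05), and 6 to 214 with a library left out, 6 without knockout replicate 3 and 9 without knockout replicate 4; it moved by over 1.5 times in 10 of 12 such fits, the exceptions being control replicates 5 and 6. Of the 7 other members, 0 passed in any alternative; with a library left out, the fold change of Ctnnb1 ran from -0.014 (control replicate 3) to 0.066, and was -0.0093 without knockout replicate 6. The r of Tcf7 ran from -0.053 to 0.36 for Axin2, 0.19 to 0.49 for the T cell score, 0.03 to 0.62 for the NK and cytotoxic score and 0.56 to 0.77 for the myocyte score with a library left out. The negative values for Axin2 were -0.023 (knockout replicate 3 left out), -0.053 (knockout replicate 5), -0.053 (knockout replicate 6), -0.026 (control replicate 1) and -0.013 (control replicate 6). Over sets r was 0.81, 0.81 and 0.54 for the T cell, NK and myocyte scores. Same-numbered libraries had correlations of deviations between -0.13 and 0.46, the highest for replicate 6. Whether samples of the same number are paired cannot be told from these values or the labels used here. With the replicate number as a block, 236 genes passed and the fold change of Tcf7 was 0.64. In that setting r was 0.76 for Axin2, 0.14 for the T cell score, 0.35 for the NK score and 0.95 for the myocyte score. Counts of 6 to 38 limit Lef1.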
